A study of Homo sapiens with 9 samples.

Results

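A set of 10 genes of transforming growth factor beta (TGF-beta) signalling were followed in CAL27 cells, an established line of tongue squamous carcinoma. They are the ligand genes TGFB1, TGFB2 and INHBA, the ligand-storing LTBP1, the pseudo-receptor BAMBI, the signal carrier SMAD3, the feedback genes SMAD7, SKIL and PMEPA1, and the target gene TGFBI. These 10 of the 78894 gene identifiers in the deposited files were selected by name, with their differences between Control and edited cells already known. All 10 were present, and 9 of them were among the 17100 genes that passed the filter on low values, a TPM (transcript share of the library, corrected for length) of at least 1 in at least 2 libraries. BAMBI did not pass.

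The study measured polyA RNA from 4 groups of CAL27 cells, Control and the CRISPR-edited groups A2ko, A8ko and C9ko. All were grown in DMEM with serum and received no treatment per the labels, and no time point is given. The sources used here give neither the edited sequence nor the clonal or pooled origin of the groups. The title names an enhancer of head and neck carcinoma.

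Of 9 files, 7 held distinct libraries: 3 Control, 1 A2ko, 1 A8ko and 2 C9ko. Both A2ko files hold the same 78894 values, with the name of the second A2ko library on the value column, and the same is true of A8ko. Each pair was counted as 1 library, so A2ko and A8ko have no replicate check. Nothing in the labels says that replicates came from separate cultures, so p-values for C9ko measure only the spread between these libraries. Where all knockouts were tested together, the spread between knockout groups counted as well. The number of genes at 1 TPM or more ran from 15556 to 16716 per library, and mitochondrial transcripts took 17.9% to 26.9% of the total. Sequencing depth is unknown, since TPM keeps no record of it. The 7 squamous epithelial markers summed to 13968 to 15096 TPM in Control and 5711 to 8607 TPM in the knockouts, and none of them was at 0 in any library. KRT5 and KRT14 carried this difference, and CDH1 had 100.3 to 106 TPM in Control and 138 to 177 TPM in the knockouts. Markers of endothelium (4 genes) summed to 3.51 to 4.55 TPM in Control and 8.63 to 30.1 TPM in the knockouts, nearly all of it CDH5, with KDR listed at 0 throughout. For 6 leukocyte genes the sums were 42.3 to 50.4 and 59.4 to 82.8 TPM, from CD14 and CD68, while MS4A1 was listed at 0 throughout and PTPRC never exceeded 0.0232 TPM. The 7 fibroblast markers summed to 10.8 to 12.2 TPM in Control and 7.36 to 17.7 TPM in the knockouts, with COL3A1 listed at 0 throughout. The part of these markers and of the mitochondrial share in the differences below was not tested.

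TGF-beta ligands are secreted as latent complexes tethered to the matrix by LTBP proteins and released in part by integrins. They and the activins bind paired serine/threonine kinase receptors that phosphorylate SMAD2 and SMAD3, whereas bone morphogenetic proteins (BMPs) act through SMAD1, SMAD5 and SMAD9. Both branches share SMAD4, and CAL27 is known as a line without functional SMAD4 protein. In squamous epithelium the pathway restrains growth and, in carcinomas, is also known for matrix production and invasion.

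PMEPA1 encodes a membrane protein that binds SMAD2 and SMAD3 and limits their access to the receptor, and TGFB2 encodes a ligand of the pathway. Both had higher TPM than Control in every knockout library, so windows of 250 bases upstream of their RefSeq start sites are printed here. They come from GRCh38.p14 and read 5′ to 3′ along the gene's strand, with the letters CAGACA, which contain a SMAD-binding box, in capitals. The box alone, AGAC or its reverse complement GTCT, is not marked and stands in every window printed. RefSeq gives PMEPA1 several starts, and 2 windows free of its own exons are shown. The one at start 3 overlaps an exon of the antisense gene NKILA, the one at start 4 overlaps no annotated exon, and the TGFB2 window overlaps an exon of TGFB2-AS1.
PMEPA1, start 3, minus strand, chr20:57710016-57710265: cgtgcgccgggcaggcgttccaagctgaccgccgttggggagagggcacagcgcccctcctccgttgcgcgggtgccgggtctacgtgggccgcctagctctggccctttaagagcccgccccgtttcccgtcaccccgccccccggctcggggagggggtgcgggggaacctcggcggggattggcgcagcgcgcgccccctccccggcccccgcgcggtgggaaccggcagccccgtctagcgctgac
PMEPA1, start 4, minus strand, chr20:57690687-57690936: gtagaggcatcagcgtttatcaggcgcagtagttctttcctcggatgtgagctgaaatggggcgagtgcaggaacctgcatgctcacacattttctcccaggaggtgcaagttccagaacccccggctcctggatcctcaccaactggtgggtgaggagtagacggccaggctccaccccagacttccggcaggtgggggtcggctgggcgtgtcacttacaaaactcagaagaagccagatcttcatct
TGFB2, plus strand, chr1:218345086-218345335: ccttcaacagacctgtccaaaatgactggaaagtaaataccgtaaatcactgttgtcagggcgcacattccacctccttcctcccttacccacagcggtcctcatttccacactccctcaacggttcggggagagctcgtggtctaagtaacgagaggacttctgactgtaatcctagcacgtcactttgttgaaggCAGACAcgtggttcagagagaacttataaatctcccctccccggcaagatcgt

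All 10 genes had RefSeq windows, 21 in total. CAGACA or its reverse TGTCTG stood in 5 of the 21 windows (23.8%), from PMEPA1, TGFB2, LTBP1 and SMAD3, against 13.6% of all 35116 promoters. The letters GGCGCC, which equal their own reverse complement, stood in 5 of 21 windows, from PMEPA1, TGFBI, SKIL, BAMBI and SMAD3, against 16.4% of all promoters. For PMEPA1, CAGACA stood at start 2 and GGCGCC at start 1, in windows that overlap its own exons and are not printed above. The palindrome GTCTAGAC stood in none of the 21 windows and in 0.182% of all promoters. The palindrome shares the letters GTCT with TGTCTG. TPM is given per gene, so the starts cannot be told apart in these data.

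In the following, positions are those of GENCODE release 29 on GRCh38. TGFB1 (chr19:41301587-41353911), the ligand abundant in many tissues, had 6.83, 5.27 and 7.84 TPM for its 3 Control measurements, against 11.4 for A2ko, 12.6 for A8ko, and 8.06 and 8.02 for C9ko. Every knockout library was above all Control libraries, with C9ko just above the highest of them. In such bulk RNA, fewer cells of a type and less RNA per cell cannot be told apart. The log2(TPM + 1) difference from the Control mean of 6.64 ± 1.29 TPM (SD, n = 3) was 0.71 for A2ko, 0.85 for A8ko and 0.26 for C9ko. TGFB1 overlaps HNRNPUL1, CCDC97 and TMEM91 on the other strand, and whether counting used strand is not given in the sources used here.

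TGFB2 (chr1:218346235-218444619), the isoform known for its role in epithelial-mesenchymal interactions, had 6.74, 5.63 and 6.04 TPM in Control, against 15.3 for A2ko, 14.5 for A8ko, and 33.1 and 35.3 for C9ko. No knockout library overlapped Control, and C9ko was above both other knockouts. The C9ko mean was 5.57 times the Control mean of 6.14 ± 0.564 TPM (SD, n = 3), with 2.49 times in A2ko and 2.37 times in A8ko. TGFB1 and TGFB2 stood at levels whose ranges overlapped in Control, whereas TGFB2 was above TGFB1 in each of the 4 knockout libraries. Of the summed TPM of TGFB1, TGFB2 and TGFB3, TGFB2 made up 40.2% to 44.1% in Control, 52.0% for A2ko, 51.1% for A8ko, and 78.6% and 79.6% for C9ko. The sum itself was 15.4, 12.8 and 15.0 TPM in Control, against 29.4 for A2ko, 28.4 for A8ko, and 42.1 and 44.4 for C9ko.

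INHBA (chr7:41667168-41705834) encodes the subunit of activin A, which signals through SMAD2 and SMAD3. It had 13.2, 13.3 and 13.1 TPM in Control, against 7.93 for A2ko, 60.4 for A8ko, and 63.5 and 67.3 for C9ko. A8ko and C9ko were far above Control, and A2ko was below all 3 Control libraries. Relative to the Control mean of 13.2 ± 0.0956 TPM (SD, n = 3), INHBA was 4.59 times as high in A8ko, 4.97 times as high in C9ko and 0.602 times as high in A2ko. FST encodes follistatin, a secreted protein that traps activin. The TPM of FST per TPM of INHBA was 7.43, 7.24 and 7.70 in Control, against 1.99 for A2ko, 2.47 for A8ko, and 2.94 and 2.87 for C9ko. This ratio was below Control in all knockouts, although FST itself stood at 97.7, 96.2 and 101 TPM in Control, against 15.8 for A2ko, 149.5 for A8ko, and 187 and 193 for C9ko.

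LTBP1 (chr2:32946972-33399509) tethers latent TGF-beta to the extracellular matrix. Its TPM was 1.24, 1.13 and 1.43 in Control, against 0.481 for A2ko, 1.495 for A8ko, and 3.16 and 3.65 for C9ko. A2ko was below all Control libraries, A8ko just above the highest, and C9ko 2.70 times the Control mean of 1.26 ± 0.153 TPM (SD, n = 3). At these low levels the log2(TPM + 1) difference, 0.96 in C9ko, understates the ratio.

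BAMBI (chr10:28677342-28682939) encodes a receptor-like protein without a kinase domain that dampens TGF-beta signals. It was listed at 0.297, 0.185 and 0.168 TPM in Control, against 1.14 for A2ko, 0 for A8ko, and 0.0376 and 0.220 for C9ko. Only A2ko reached 1 TPM, and C9ko spanned values below and within the Control range. With TPM that low in 6 of 7 libraries, no fold change is given.

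SMAD3 (chr15:67063763-67195195) carries the signal of activated TGF-beta and activin receptors to DNA. It had 62.6, 56.0 and 66.7 TPM in Control, against 76.1 for A2ko, 62.2 for A8ko, and 75.4 and 74.2 for C9ko. A8ko lay within the Control range, while A2ko and C9ko were above it. The log2 difference was 0.30 for A2ko, 0.01 for A8ko and 0.28 for C9ko. With median-of-ratios scaling these became 0.17, -0.09 and 0.15, so the sign in A8ko depended on the scaling. SMAD4, the partner of SMAD3, had 6.59, 4.96 and 5.38 TPM in Control and 5.49 to 7.35 TPM in the knockouts. Its C9ko difference of 0.09 ± 0.12 (SE) did not pass the limma test (adjusted p = 0.619).

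Among the intracellular feedback genes, SMAD7 (chr18:48919853-48952052) encodes the inhibitory SMAD that recruits ubiquitin ligases to the receptor. Its TPM was 1.38, 1.95 and 1.69 in Control, against 2.43 for A2ko, 2.74 for A8ko, and 2.08 and 2.30 for C9ko. The lowest knockout library was 2.08 TPM and the highest Control library 1.95 TPM, a narrow gap for a gene at this level. SKIL (chr3:170357678-170396835) encodes SnoN, a nuclear repressor of SMAD complexes. Its TPM was 5.11, 4.48 and 5.07 in Control, against 7.41 for A2ko, 7.31 for A8ko, and 7.63 and 8.55 for C9ko. The log2 differences were similar in size, 0.52 for A2ko, 0.50 for A8ko and 0.63 for C9ko, from a Control mean of 4.88 ± 0.354 TPM (SD, n = 3).

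PMEPA1 had 4.56, 4.76 and 4.83 TPM in Control, against 11.1 for A2ko, 17.4 for A8ko, and 21.5 and 22.1 for C9ko. The knockouts were ordered A2ko, A8ko, C9ko without overlap, and all were above Control. Against the Control mean of 4.72 ± 0.141 TPM (SD, n = 3) the level was 2.34 times as high in A2ko, 3.69 times in A8ko and 4.62 times in C9ko. The corresponding log2 differences were 1.08, 1.69 and 2.00, or 0.96, 1.60 and 1.88 after median-of-ratios scaling. NKILA, a long noncoding RNA that overlaps PMEPA1 on the other strand, had 0.427, 0.390 and 0.559 TPM in Control, against 0.636 for A2ko, 1.08 for A8ko, and 1.08 and 1.61 for C9ko. NKILA was under 1 TPM in Control and A2ko and passed the filter only through A8ko and C9ko, where it was high. Its C9ko difference of 0.68 ± 0.18 (SE, limma adjusted p = 0.0285) is therefore only a description. The reads of NKILA and those of PMEPA1 cannot be told apart where counting ignores strand. LDLRAD4, the paralog of PMEPA1, did not exceed 0.221 TPM in any library.

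TGFBI (chr5:136028895-136063818), which encodes a secreted matrix protein named for its induction by TGF-beta, was the member at the highest level and the one that was lower in every knockout. Its TPM was 346, 338 and 345 in Control, against 151 for A2ko, 214 for A8ko, and 216 and 216 for C9ko. No knockout library overlapped Control, and A2ko was the lowest. The Control mean of 343 ± 4.26 TPM (SD, n = 3) was 2.28 times the A2ko value, 1.60 times the A8ko value and 1.58 times the C9ko mean.

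**Figure D1:**
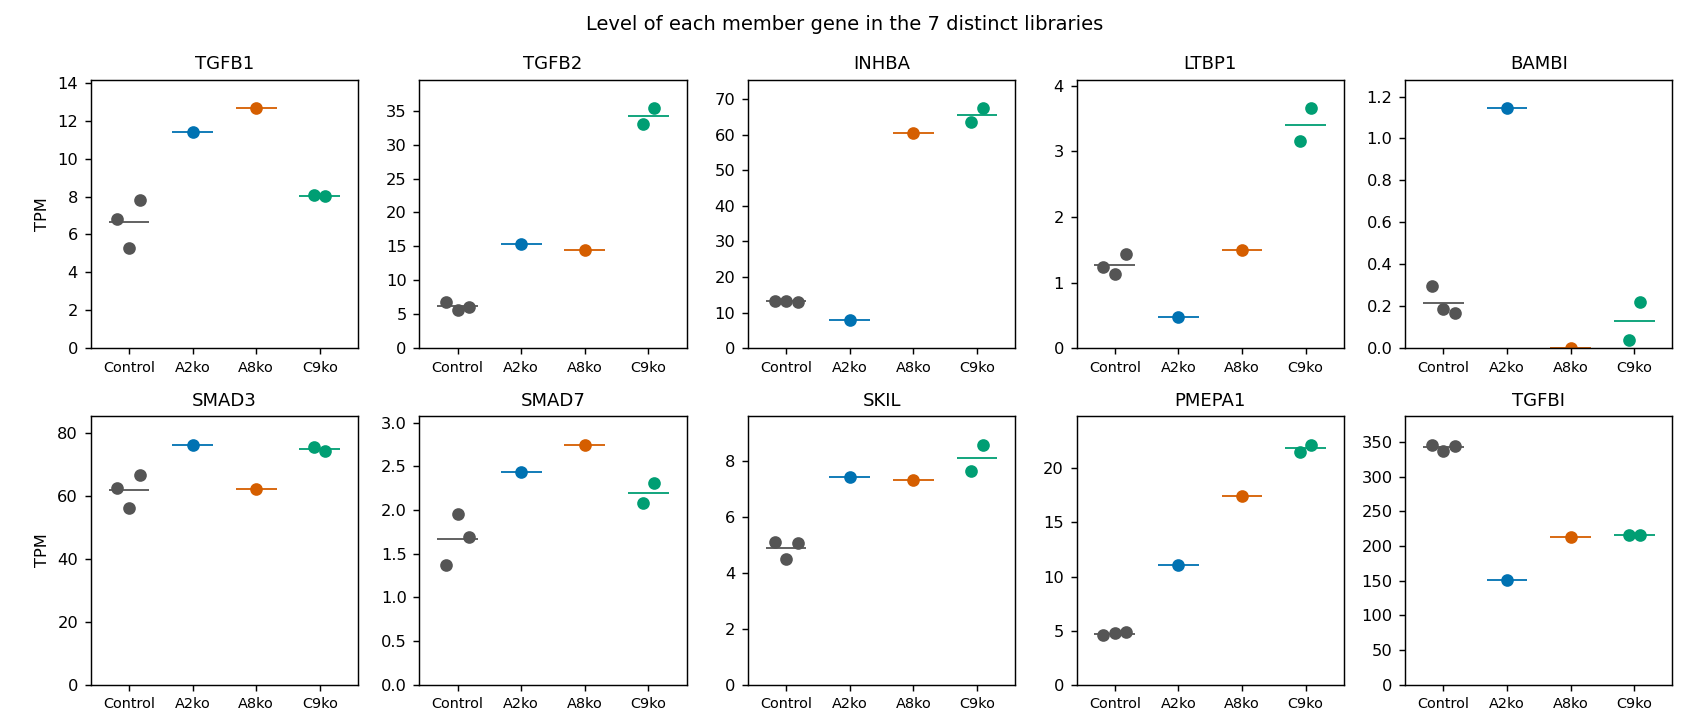
TPM of each of the 10 member genes (vertical axis, linear from 0, own scale per panel) in Control, A2ko, A8ko and C9ko. Points are distinct libraries and bars group means; PMEPA1 and TGFB2 sit above Control in every knockout, TGFBI below, and INHBA is below Control in A2ko only.

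The order of the 9 tested genes and BAMBI by TPM in Control was TGFBI, SMAD3, INHBA, TGFB1, TGFB2, SKIL, PMEPA1, SMAD7, LTBP1 and BAMBI. The Control ranges overlapped between TGFB1 and TGFB2, between SKIL and PMEPA1, and between SMAD7 and LTBP1. In C9ko the order was TGFBI, SMAD3, INHBA, TGFB2, PMEPA1, SKIL, TGFB1, LTBP1, SMAD7 and BAMBI, with SKIL and TGFB1 overlapping. PMEPA1 was above SKIL and TGFB1 in C9ko, and TGFB2 was above TGFB1 without overlap.

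Counts over the members are a description, since the members were chosen with these differences known, and they share the Control libraries. In C9ko, limma called 7 of the 9 tested members at an adjusted p under 0.05, 6 higher (PMEPA1, SKIL, TGFB2, INHBA, LTBP1 and SMAD3) and TGFBI lower. Of all tested genes 29.5% were called, 22.0% higher and 7.42% lower, or 2626 higher and 2187 lower after median-of-ratios scaling in place of 3770 and 1268. The SMAD3 call missed the threshold in 9 of 13 alternatives, among them without Control replicate 1 (adjusted p = 0.0915) or 2 (0.085), and without C9ko replicate 1 (0.155) or 2 (0.137). The median log2 difference of the members was 0.63 in C9ko, against 0.11 over all tested genes.

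All knockouts together were compared with Control with the mean of each knockout group as 1 value. There limma called 1 of the 9 members, PMEPA1 (higher), against 1.03% of all tested genes, 0.509% higher and 0.520% lower. That call missed the threshold without Control replicate 1 (adjusted p = 0.217), 2 (0.205) or 3 (0.201), without A8ko (0.0771) and without C9ko (0.0714). Without A2ko the number of members called was 5, and of all 17100 tested genes 1993 were called in place of 176. Past the fold in A2ko, meaning outside the Control range and at least 1 log2 unit from its mean, were 3 members, PMEPA1 and TGFB2 higher and TGFBI lower, against 5.07% of all tested genes (3.54% higher and 1.53% lower). In A8ko 3 members were past it, PMEPA1, TGFB2 and INHBA, all higher, against 4.73% of all tested genes (2.05% higher and 2.68% lower). Every knockout library was above every Control library for 5 members (PMEPA1, SMAD7, SKIL, TGFB1 and TGFB2), as for 17.0% of all tested genes, and below for TGFBI, as for 4.61%. For INHBA and LTBP1, 1 knockout was above every Control library and another below, as for 30.7% of all tested genes.

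The genes around each member on its chromosome give a local comparison. PMEPA1 lies at chr20:57648392-57711536 on the minus strand. The 47 other tested genes within 5 Mb had a median log2 difference of 0.11 for A2ko, 0.13 for A8ko and 0.18 for C9ko, close to the all-gene medians of 0.12, 0.09 and 0.11. PMEPA1 itself differed by 1.08, 1.69 and 2.00. Around SMAD3 the 73 neighbours had medians of 0.14 for A2ko, -0.23 for A8ko and 0.06 for C9ko, and 15 of them were higher in A8ko. The other tested members had neighbour medians between -0.00 and 0.23.

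**Figure D2:**
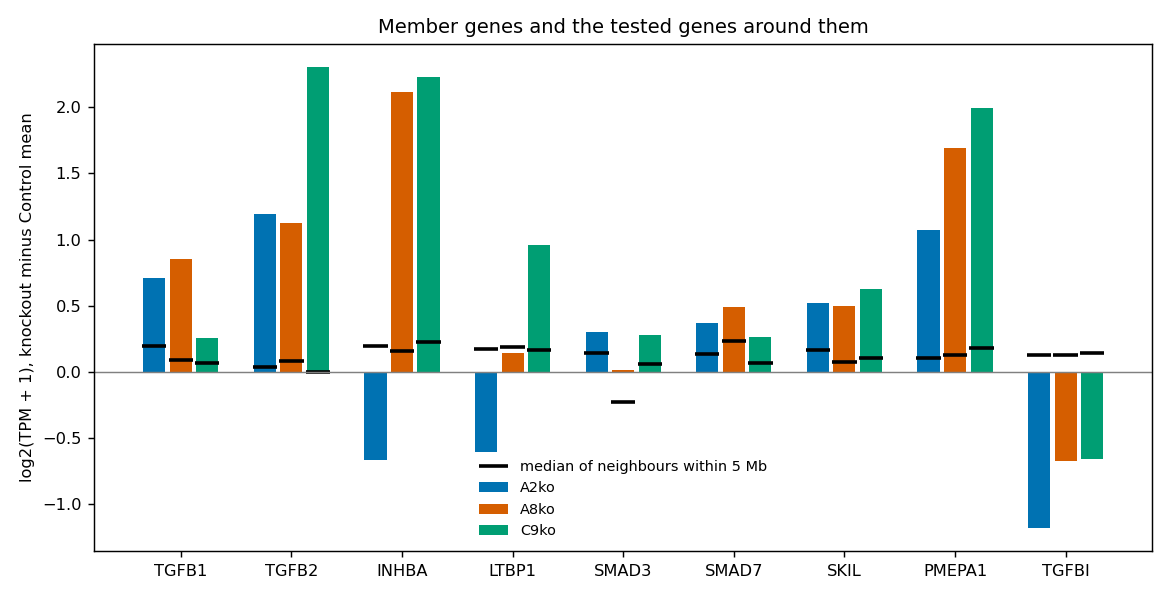
Log2(TPM + 1) difference from the Control mean for the 9 tested members (bars, by knockout) with the median of the other tested genes within 5 Mb (black lines). The bars of PMEPA1 reach 1.08, 1.69 and 2.00 while the lines around it stay at 0.11, 0.13 and 0.18; INHBA is negative in A2ko and positive in A8ko and C9ko.

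A list of 68 further genes of the pathway, in 7 roles, was drawn up from background knowledge with earlier results of these data known. Of the 59 that passed the filter, limma called 32 in C9ko, 26 higher and 6 lower, or 22 higher and 10 lower after median-of-ratios scaling. That is 54.2% of the list genes, against 29.5% of all tested genes (22.0% higher and 7.42% lower). The 32 include ACVR2B, which passed the filter only through A8ko and C9ko. The median log2 difference was 0.25, against 0.11 over all tested genes. Of the 32 calls, 23 held in every alternative, and LTBP4, TGFBR1, ACVR2B, SMAD2, SMURF2, TGIF2, FKBP1A, CDKN1A and COL1A1 missed the threshold in at least 1. Without C9ko replicate 2, 8 of these 9 missed it, from TGFBR1 (adjusted p = 0.0589) to CDKN1A (0.231), and FKBP1A did not. LTBP4, ACVR2B and CDKN1A also missed it without each Control library in turn. With all knockouts together limma called none of the 59 at an adjusted p under 0.05, and 17 had an unadjusted p under 0.05. Furthest apart there were TGM2 (1.26), ITGB5 (0.98) and ANGPTL4 (0.97) on the higher side and BMP7 (-1.52), ID1 (-1.12) and ID2 (-0.75) on the lower side.

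The activators of latent ligand were the role in which every gene rose in C9ko, 5 of 5, against 22.0% of all tested genes. ITGB6, the integrin subunit of squamous epithelium that releases latent TGF-beta, rose by 1.22 ± 0.08 (SE, adjusted p = 0.000103). Its partner ITGAV rose by 0.97 ± 0.07 (adjusted p = 0.000149), and ITGB5 rose by 1.21 ± 0.09 (adjusted p = 0.00016). THBS1, thrombospondin, had 365, 345 and 359 TPM in Control, against 138 for A2ko, 426 for A8ko, and 667 and 716 for C9ko. A2ko was below Control and the other knockouts above it. On the log2(TPM + 1) scale ITGB8 was the tested list gene furthest above Control in A2ko, with 38.4 TPM against 14.1 to 15.6.

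Among 11 tested ligands and latent-complex genes, INHBB, BMP2 and LTBP2 rose in C9ko, BMP7 and LTBP4 fell, and 6 did not pass. That is 45.5% called, against 29.5% of all tested genes. INHBB, the second activin subunit, rose by 1.32 ± 0.09 (SE, adjusted p = 0.000119). BMP7, a ligand of the SMAD1 and SMAD5 branch, had 12.4, 10.4 and 11.6 TPM in Control, against 15.0 for A2ko, 1.93 for A8ko, and 0.830 and 0.664 for C9ko. A2ko was above Control, and A8ko and C9ko were far below it. In C9ko BMP7 fell by 2.83 ± 0.11 (SE, adjusted p = 1.77e-05), to a level 15.4 times under the Control mean. BMP7 lies on chromosome 20 too, at chr20:57168748-57266629 and 381.8 kb from PMEPA1, the member whose levels ran the other way in A8ko and C9ko. The TPM of PMEPA1 per TPM of BMP7 was 0.368, 0.459 and 0.415 in Control, against 0.739 for A2ko, 9.06 for A8ko, and 26.0 and 33.3 for C9ko. GDF15 had 30.0 TPM in A8ko and 5.58 to 11.3 TPM in every other library.

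Of the 9 tested receptors, TGFBR1, TGFBR2 and ACVR2B rose in C9ko and none fell. That is 33.3% called, near the 29.5% of all tested genes. ACVR2B was under 1 TPM in Control and A2ko and passed the filter only through A8ko and C9ko, so its call is only a description. TGFBR2, the type II receptor of TGF-beta, had 15.0, 14.3 and 15.3 TPM in Control, against 20.1 for A2ko, 17.1 for A8ko, and 44.5 and 47.0 for C9ko. Its C9ko difference was 1.56 ± 0.07 (SE, adjusted p = 2.58e-05). Of 3 tested soluble inhibitors FST and TWSG1 rose, FST by 0.95 ± 0.06 (SE, adjusted p = 8.79e-05), and FSTL3 did not pass. Of 5 tested SMAD genes and the SMAD anchor ZFYVE9, SMAD2 alone rose, and of 7 tested intracellular brakes SMURF2, TGIF2 and FKBP1A rose. Called were 66.7% of the soluble inhibitors, 16.7% of the SMAD genes with ZFYVE9 and 42.9% of the brakes, against 29.5% of all tested genes.

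Of the 18 tested target genes, CCN2, KLF10, CDKN2B, SNAI1 and SNAI2 did not pass the test in C9ko. The test called 72.2% of the 18, against 29.5% of all tested genes. In C9ko 9 rose, among them CDKN1A, FN1, COL1A1, COL4A1, ANGPTL4, TGM2, TAGLN and ACTA2. Of these, TGM2 (transglutaminase 2) rose by 1.99 ± 0.09 (SE, adjusted p = 2.58e-05), FN1 (fibronectin) by 1.85 ± 0.11 (adjusted p = 6.47e-05), and TAGLN (transgelin) by 1.83 ± 0.13 (adjusted p = 0.000126). FN1 had 9.06, 7.90 and 8.37 TPM in Control, against 4.08 for A2ko, 24.7 for A8ko, and 30.0 and 36.4 for C9ko, a pattern in which A2ko was below Control as for INHBA. The 4 that fell were JUNB and the BMP-responsive ID1, ID2 and ID3, which encode inhibitors of helix-loop-helix factors. ID1 had 435, 378 and 473 TPM in Control, against 497 for A2ko, 106 for A8ko, and 133 and 149.5 for C9ko. A2ko was just above the Control range, and A8ko and C9ko were well below it. ID1 fell by 1.59 ± 0.11 in C9ko (SE, adjusted p = 0.000119), ID2 by 0.86 ± 0.15 (adjusted p = 0.00688) and ID3 by 0.81 ± 0.08 (adjusted p = 0.000646). The summed TPM of ID1, ID2 and ID3 was 570.1, 495.8 and 606.8 in Control, against 622.7 for A2ko, 154.1 for A8ko, and 202.7 and 225.1 for C9ko.

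**Figure D3:**
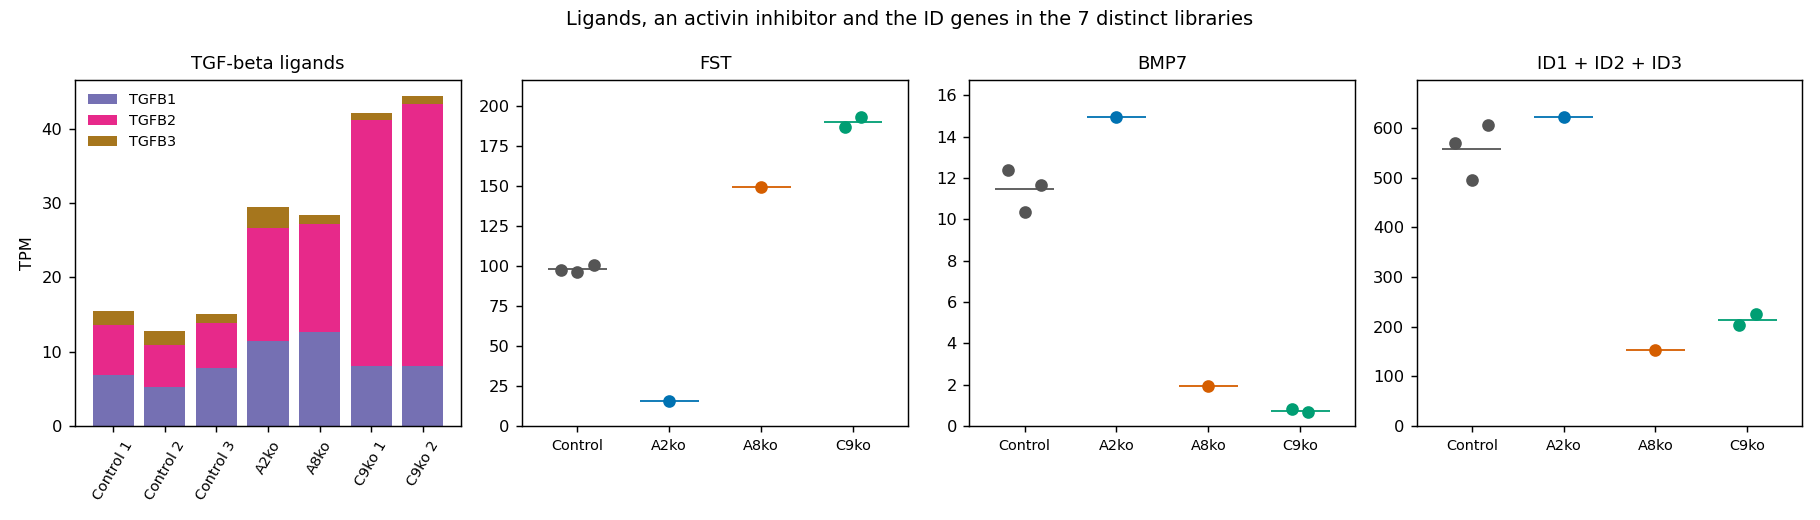
TPM (linear, from 0) in the 7 distinct libraries: stacked TGFB1, TGFB2 and TGFB3, then FST, BMP7 and the sum of ID1, ID2 and ID3, with points for libraries and bars for group means. TGFB2 makes up 78.6% and 79.6% of the stack in C9ko, FST is at 15.8 TPM in A2ko, and BMP7 and the ID sum are low in A8ko and C9ko.

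In the 1 A2ko library, 7 of the 59 tested list genes were past the fold, ITGB8, BMP2, FSTL3 and SNAI1 higher and FST, CCN2 and THBS1 lower. That is 11.9%, against 5.07% of all tested genes. FST at 15.8 TPM was 6.23 times under the Control mean, and CCN2, a matricellular target, had 40.4 TPM against 148 to 162. In the 1 A8ko library 9 were past it, or 15.3%, against 4.73% of all tested genes. GDF15, TGM2, FN1, ITGB5 and BMP4 were higher, and BMP7, ID1, ID2 and ID3 were lower. Every knockout library was above every Control library for 17 of the 59 list genes (28.8%, against 17.0% of all tested genes) and below for ID2 and KLF10 (3.39%, against 4.61%).

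**Figure D4:**
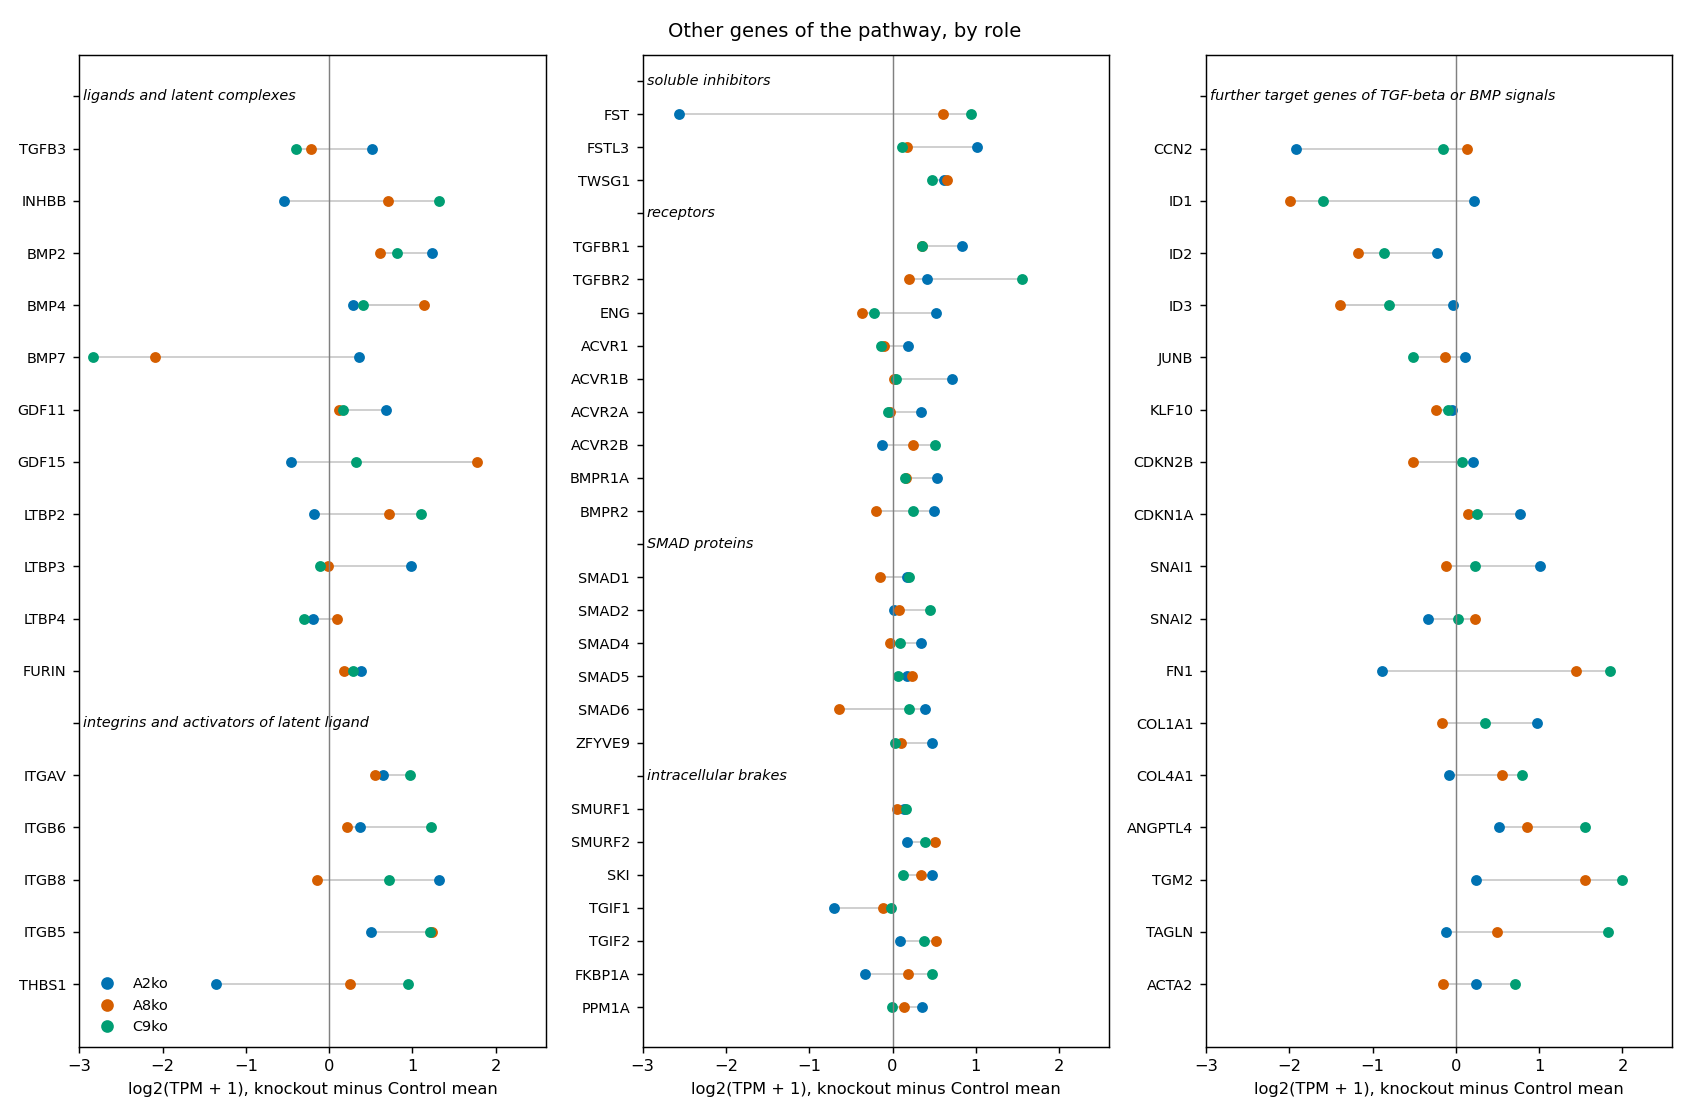
Log2(TPM + 1) difference from the Control mean for the tested genes of the pathway list, 1 of which is not shown, grouped by role, with 1 point per knockout. Knockouts spread widest for FST, BMP7 and FN1, and the ID genes are at or below -0.81 in A8ko and C9ko and between -0.22 and 0.22 in A2ko.

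By correlation of log2(TPM + 1) over the 7 distinct libraries, the 5 genes most like PMEPA1 of 1829 genes with a mean of at least 5 TPM and a range of at least 1 log2 unit were CCDC9B (Pearson r = 0.995), ABCC3 (0.995), RELB (0.993), ENSG00000258377 (0.992) and PLOD2 (0.992). RELB encodes a subunit of NF-kB, and PLOD2 a lysyl hydroxylase of collagen. RELB had 18.2, 17.6 and 17.2 TPM in Control, against 25.6 for A2ko, 34.3 for A8ko, and 33.8 and 36.2 for C9ko. These are descriptions over libraries that share 3 Controls, and carry no p.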

How the data were processed

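PolyA RNA of CAL27 cells was extracted with TRIzol and dUTP libraries were made from 2 ug of total RNA, per the labels. The authors deposited TPM per Ensembl gene for each library, on hg38 per the submitters' processing notes. The aligner, quantifier, annotation and use of strand are not given in the sources used here. TPM is a share, so a fall of abundant genes raises all others. The median gene was 0.09 to 0.12 higher in the knockouts on the log2(TPM + 1) scale and within 0.01 of 0 after median-of-ratios scaling. Symbols were found for 61463 of 78894 identifiers, and positions for 57342, in GENCODE release 29. Promoter windows came from RefSeq (GRCh38.p14).

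Values were analysed as log2(TPM + 1), which understates changes of low genes. limma 3.58.1 in R 4.3.3 (lmFit and eBayes with trend) fitted all 7 distinct libraries. For all knockouts together it compared 2 groups, the Control libraries and the knockouts with the mean of each knockout group as 1 value. Both fits used Benjamini-Hochberg adjustment over the 17100 tested genes and calls under 0.05. They were checked on simulated data without spread between knockout groups, so the check does not cover such spread. For A2ko and A8ko, with 1 library each, no test was made. Counts past the fold used at least 1 log2 unit and a value outside the Control range.

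The members and lists were chosen with earlier results of these data known. Named genes were all members, list genes called or among the 3 largest and smallest differences per comparison, NKILA, LDLRAD4, and the 5 genes most like PMEPA1. SMAD4, KLF10, BMP4, SNAI1 and ZFYVE9 are named in addition, chosen after their values were seen. So are the list genes above Control in 1 knockout and below it in another. The values of 1 gene of the list are not reported here. Alternatives were a pseudocount of 0.1, every gene above 0 TPM, a mean of at least 5 TPM, median-of-ratios scaling, no trend, each library left out, a replicate block, each file as its own library, and windows of 2 and 10 Mb.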

Additional observations from a re-analysis of the deposited data

Results flagged for a closer look

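For 27 of the genes described, libraries of at least 1 knockout all lay above the Control range while those of another all lay below it. These are 2 of the 9 tested members and 25 of the 59 tested list genes, against 30.7% of all 17100 tested genes. The differences between knockouts were not tested, A2ko and A8ko have 1 library each, and all share the Control libraries. Each value below is the gap between the highest and the lowest knockout on the log2(TPM + 1) scale, and a large gap can include a small difference on 1 side.

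A8ko and C9ko were above Control and A2ko below it for FST (3.51), INHBA (2.89), FN1 (2.75), THBS1 (2.31), GDF15 (2.24), TAGLN (1.95), INHBB (1.85), LTBP1 (1.57), LTBP2 (1.29), COL4A1 (0.88), FKBP1A (0.81) and ACVR2B (0.64). The A2ko difference from the Control mean was small for COL4A1 (-0.08), TAGLN (-0.12), ACVR2B (-0.13) and LTBP2 (-0.18). For the others of this group it was -0.33 (FKBP1A) or lower. ACVR2B passed the filter only through A8ko and C9ko.

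A2ko was above Control and both A8ko and C9ko below it for BMP7 (3.19), ID1 (2.22), ENG (0.88) and JUNB (0.62). JUNB in A2ko differed from the Control mean by 0.11, or -0.02 after median-of-ratios scaling. A2ko was above and C9ko below for LTBP3 (1.09) and TGFB3 (0.92). A2ko was above and A8ko below for SMAD6 (1.04) and CDKN2B (0.72).

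A2ko and C9ko were above Control and A8ko below it for ITGB8 (1.47), COL1A1 (1.14), ACTA2 (0.87), BMPR2 (0.69) and SMAD1 (0.35). A8ko was above and A2ko below for CCN2 (2.06), with C9ko below as well, and for SNAI2 (0.57).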

How the results depend on the processing

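Of 379 values of members under alternatives, 320 kept their side of the threshold or moved by less than the Control spread. No called difference reversed, while uncalled values could change sign within the 320. The sign of 4 member values changed: SMAD3 in A8ko (0.01) was -0.09 after median-of-ratios scaling and -0.05 without Control replicate 2, LTBP1 in A8ko (0.14) was -0.05 relative to its neighbours, and LTBP1 in all knockouts together (0.16) was -0.23 without C9ko. Of 2308 values of the other pathway genes 56 changed sign, and 1 of these was called after the change: FST in all knockouts together was -0.34, and 0.77 without A2ko. Genes past the fold in A2ko numbered 867, or 1813 with a pseudocount of 0.1 and 380 with a mean of at least 5 TPM. In A8ko the count was 809, or 1689 and 412. limma called 5038 genes in C9ko, 3301 to 4174 with 1 library left out, 3248 with the replicate block, and 8335 with each file as its own library, which counts identical files as replicates. In all knockouts together it called 176, or 23 with every gene above 0 TPM. The count was 5 to 165 with 1 Control or C9ko library left out, 1993 without A2ko and 67 without C9ko. It was 4361 with the knockout average of the 4-group fit. Members called there by limma were 1, or 0 with every gene above 0 TPM (5 at unadjusted p under 0.05) and without A8ko (5). They were 0 to 1 with 1 Control or C9ko library left out, 5 without A2ko and 6 with the average. Pathway genes called were 0 (17 at an unadjusted p under 0.05), or 1 with a mean of at least 5 TPM. They were 0 to 1 with 1 Control or C9ko library left out, 18 without A2ko and 35 with the average. For other counts the cause was not tested. Deviations of same-numbered Control and C9ko libraries from their group means had r = -0.05 and -0.01 over genes (2 pairs). The deviations of the 2 C9ko libraries mirror each other, so these values cannot show whether same-numbered libraries were handled together. The replicate block left 6 members and 23 pathway genes called in C9ko. Depth is unknown, which limits what can be said of BAMBI, LTBP1 and SMAD7 at their low TPM.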
